A study of Homo sapiens with 5 samples.

Results

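The response of HT1080 cells, an established human fibrosarcoma line, to IL-6 and IL-8 together was compared gene by gene with the sum of the responses to each cytokine alone, using 4 of the 5 RNA-seq libraries of the series. The 4 libraries came from cells embedded for 24 h at 10 cells per cubic mm in type I collagen at 2 mg/ml. LD received no added cytokine, IL-6 received recombinant IL-6, IL-8 received recombinant IL-8, and RM received both at a ratio of 5 to 2. The sample labels give no dose for either single cytokine, and the comparison takes these doses to equal those in RM. The study measured both cytokines as proteins secreted by HT1080 cells, so LD was a culture without added cytokine rather than one without cytokine. The fifth library, HD, was seeded at 50 cells per cubic mm and entered no contrast. Each condition was sequenced as 1 library, so no difference below has a replicate check and none was tested.

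Of 27189 listed genes, 6141 had at least 10 reads in each of the 4 libraries and were compared. Total reads ran from 5096134 in IL-6 to 7118545 in LD, and the 5.8S ribosomal RNA gene RNA5-8S5 accounted for 76.9% to 79.6% of them. The reads on all other genes, from 1100967 in IL-6 to 1645539 in LD, set the precision. Of the 10 mesenchymal markers searched for that the files list, 7 were compared, VIM (vimentin) being the most abundant, and together the 10 took from 7277 CPM (reads scaled to the library total outside RNA5-8S5) in RM to 10502 CPM in IL-6. Epithelial markers, mostly KRT8 and KRT18, took 955 to 1444 CPM and were highest in RM. Leukocyte and endothelial markers took at most 4.54 CPM in any of the 4, and erythroid markers had 0 reads. None of the 7 mesenchymal or the 2 epithelial markers compared departed from additivity by 1 log2 unit. In RNA from a whole matrix, fewer cells of a type and less RNA per cell cannot be told apart.

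IL-6 binds its receptor together with gp130 (IL6ST) and activates JAK kinases, which phosphorylate the transcription factor STAT3. IL-8, a CXC chemokine, signals through the G protein-coupled receptors CXCR1 and CXCR2. A pair of such inputs is additive on the log scale when the fold change under both equals the product of the fold changes under each, and it departs from additivity when the level under both is higher or lower than that product.

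The departure was computed for each gene as the interaction, RM minus IL-6 minus IL-8 plus LD, on log2 of the normalised read count (reads divided by a library factor). An interaction of 1 means that RM lay at a level 1 log2 unit above the one that both separate changes predict. Written another way, it is the distance of RM from the mean of the single-cytokine libraries plus the distance of LD from that same mean, so the untreated library weighed exactly as much as the combined treatment. A gene could therefore score high because RM was high, because LD was high, or because IL-6 or IL-8 was low. The error given beside an interaction is the counting error, which covers the sampling of reads only and neither amplification nor the variation between cultures.

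The interaction had a median of 0.00 over the 6141 genes, an SD of 1.33 and quartiles of -0.79 and 0.75 log2 units. It was at least 1 for 1199 genes (19.5%) and at most -1 for 1214 genes (19.8%), or 39.3% in either direction. The counting interval (95%) excluded 0 for 3364 genes (54.8%), 1746 of them above 0 (28.4%) and 1618 below (26.3%). The gene just inside the upper limit was SERINC1 and the one just outside was DIP2B, and at the lower limit these were PRKX and DUSP7, each within 0.01 of it. The split between high and low genes depended on the scaling, since any factor per library shifts every gene by the same amount. With total reads outside RNA5-8S5 as the scale the median moved by -0.20 and the counts became 973 and 1515, and it moved by -0.10 with upper-quartile factors and by -0.18 with TPM.

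The same 4 libraries give the main effect of each cytokine with the same weights and the same counting error. Each is the sum of the difference a cytokine made without the other and the difference it made with the other, not their average. A gene past 1 log2 unit in it therefore need not differ by 1 log2 unit with that cytokine. The contrast of IL-6 present against absent passed 1 log2 unit for 1193 genes upwards (19.4%) and 1164 downwards (19%), or 38.4% in all, with an SD of 1.31. The contrast of IL-8 present against absent did so for 1475 (24%) and 1319 genes (21.5%), or 45.5% in all, with an SD of 1.44. The number of genes departing from additivity was thus close to that for IL-6 and smaller than that for IL-8. All 3 counts fell with depth. Among genes whose lowest count was 10 to 19 reads, 50.1% had an interaction past 1 log2 unit, with a median counting error of 0.61, and among those with 300 reads or more it was 14.3%, with a median counting error of 0.11. IL-6 fell from 49.5% to 14.7% over the same range, and IL-8 fell from 55.1% to 32.7%. In the 505 deepest genes the interaction was high in 51, low in 21 and had a median of 0.18. This excess of high values depends on the scaling. Total reads outside RNA5-8S5 as the scale moved each gene by -0.20, and factors refitted on genes with at least 100 reads moved those genes by -0.13.

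**Figure D1:**
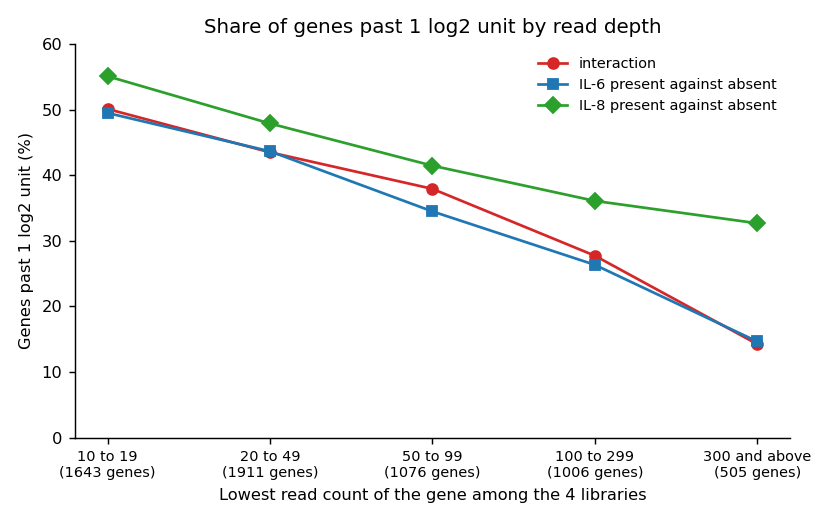
Share of genes past 1 log2 unit in either direction (vertical axis, percent) against the lowest read count of the gene among the 4 libraries (horizontal axis, 5 classes), for the interaction and for the main effect of each cytokine. Each main effect is a sum of differences, not their average. The interaction falls from 50.1% to 14.3%, close to IL-6, while IL-8 stays above both and ends at 32.7%.

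The highest interactions all belonged to genes that were abundant in RM and scarce under either cytokine alone. FARS2, the mitochondrial phenylalanyl-tRNA synthetase, had 21.7 normalised reads in LD, 12.7 with IL-6, 12.4 with IL-8 and 353 in RM, an interaction of 5.603 (counting SE 0.68). Its level in RM was 48.6-fold above the one that additivity predicts, but the single-cytokine values stood on 12 and 10 reads. CTSZ, the lysosomal carboxypeptidase cathepsin Z, followed with 67.3 in LD, 11.7 with IL-6, 12.4 with IL-8 and 100.3 in RM, an interaction of 5.54 (SE 0.67). Here LD was nearly as high as RM (a difference of 0.58 log2 units), so the score of CTSZ rested on the low reads under both single cytokines as much as on RM. RTCB, the ligase that joins tRNA exons, had 162 in LD, 62.6 with IL-6, 45.8 with IL-8 and 601 in RM, an interaction of 5.08 (SE 0.32). Both cytokines alone went with a lower RTCB level than LD, and their combination with a higher one.

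The others among the 12 highest had interactions from 4.54 to 5.05. DHX37, an RNA helicase of small ribosomal subunit assembly, stood at 55.0 normalised reads in LD, 27.6 with IL-6, 14.9 with IL-8 and 247 in RM. POLR2J3 belongs to a multi-copy family of RNA polymerase II subunit genes, so its reads (79.6, 21.2, 34.7 and 299 in the same order) may be shared with its copies and its value is uncertain. DLG5, a membrane-associated scaffold protein, had 87.5, 38.2, 29.7 and 379. RM was the highest library for all of them, and LD lay above both single-cytokine libraries. POMT1, which starts O-mannosylation of proteins, had 35.5, 15.9, 14.9 and 195 in LD, IL-6, IL-8 and RM. INTS5, a subunit of the Integrator complex that processes small nuclear RNAs, had 36.2, 23.3, 16.1 and 262. SLC35A4, of the nucleotide sugar transporter family, had 143, 109, 44.6 and 808. These also put RM first and LD second. C16orf45 (4.93) and TMEM104 (4.54) had the same order of libraries except that the lowest was IL-6 in the first and IL-8 in the second. LD exceeded both single-cytokine libraries in 11 of the 12.

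RM was the library farthest from the other 3 in all 12, at 3.06 to 4.81 log2 units above the mean of IL-6 and IL-8, while LD stood at most 2.48 above it. On a linear scale, where the expected level is IL-6 plus IL-8 minus LD, that expectation was at or below 0 for 7 of the 12, so no linear ratio exists for them. Over all genes with an interaction of at least 1 the expectation was at or below 0 for 209 of 1199 (17.4%), against 4.36% of all genes compared. RM lay above the linear expectation in each of the 1199, against 3153 of all 6141 genes compared. The 1199 were chosen for RM above the expectation on the log scale. Where LD lay above both single-cytokine libraries, the linear expectation is lower still, so this count is no separate support.

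**Figure D2:**
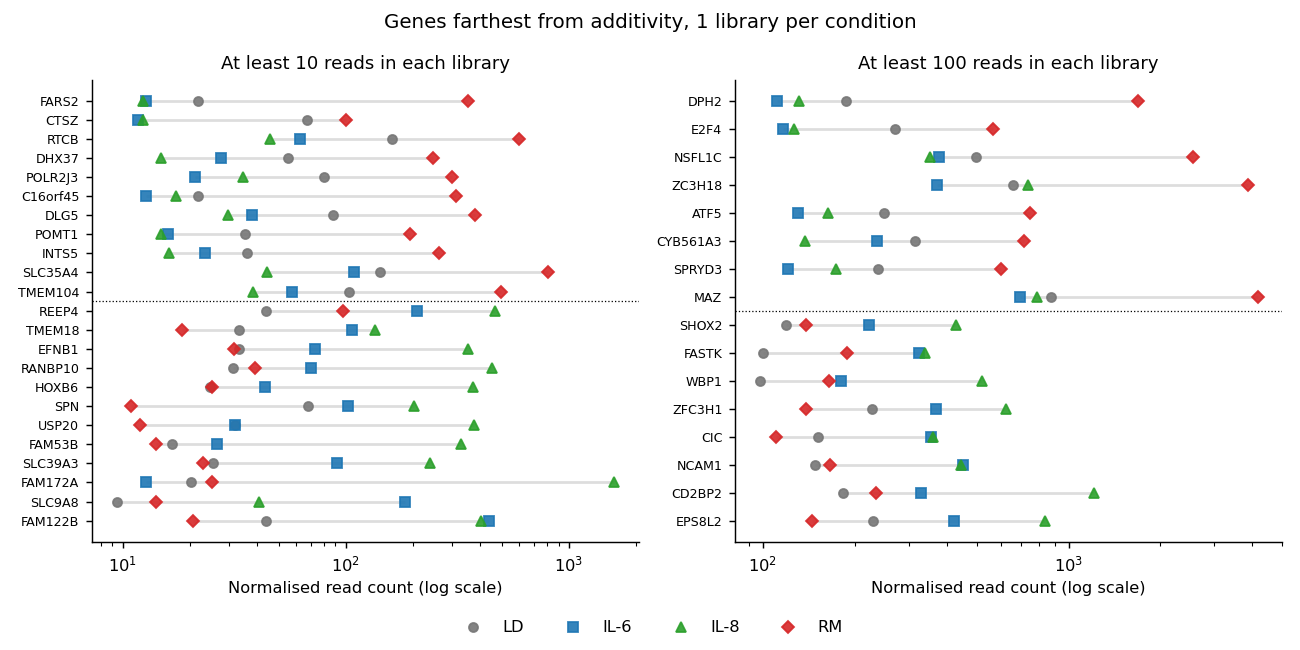
Normalised read count in each library (horizontal log axis) of 11 of the 12 highest and of the 12 lowest interactions among genes with at least 10 reads in each library (left) and of the 8 highest and 8 lowest among genes with at least 100 (right), 1 point per library and a dotted line between positive and negative interactions. RM is the rightmost point in every gene above the line, and IL-8 is the rightmost in 10 of the 12 genes below it on the left and in 7 of the 8 on the right.

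At the other end, genes were high with IL-6 alone, with IL-8 alone or with each of them, and in most RM lay within 1 log2 unit of LD. FAM122B had the lowest interaction of all, -7.60 (SE 0.39), from 44.1 normalised reads in LD, 440 with IL-6, 404 with IL-8 and 20.7 in RM. It was higher with IL-6 than in LD by 3.32 log2 units and with IL-8 by 3.19, and under both cytokines it lay below LD. SLC9A8, a sodium/proton exchanger of the Golgi, had 9.40 in LD, 185 with IL-6, 40.9 with IL-8 and 14.2 in RM, an interaction of -5.82 (SE 0.63). FAM172A had 20.3, 12.7, 1601 and 25.1, and its interaction of -5.33 (SE 0.58) came from the IL-8 library alone. In TPM the interactions of SLC9A8 and FAM172A were -8.40 and -8.33, and the cause of the gap was not tested.

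Among the other 9 of the 12 lowest, from -5.23 to -4.51, IL-8 was usually the library apart. SLC39A3, a zinc importer, had 25.3 normalised reads in LD, 91.2 with IL-6, 239 with IL-8 and 22.9 in RM. FAM53B had 16.6, 26.5, 328 and 14.2, and the deubiquitinase USP20 had 31.8, 31.8, 378 and 11.99. Each was about as low in RM as in LD, or lower. HOXB6, a homeobox transcription factor, had 24.6, 43.5, 374 and 25.1 in LD, IL-6, IL-8 and RM. EFNB1, the membrane ligand ephrin B1, had 33.3, 73.2, 352 and 31.6, and RANBP10, a Ran-binding protein, had 31.1, 70.0, 455 and 39.2. In these 3 genes LD and RM differed by at most 0.34 log2 units. SPN, which encodes the leukocyte surface protein CD43, had 68.0, 103, 203 and 10.9, and TMEM18 had 33.3, 107, 135 and 18.5, with RM as the library apart in both. REEP4, an endoplasmic reticulum shaping protein, had 44.1, 208, 468 and 97.0, and RM lay above LD but below both single-cytokine libraries.

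In the 12 lowest genes the library farthest from the others was IL-8 in 8, RM in 3 and IL-6 in 1. RM was within 1 log2 unit of LD in 8 of the 12, and LD lay below both single-cytokine libraries in 10. The lowest interactions differed in shape from the highest by which library was high. The contrast itself favours this, since RM and LD count upwards in it and IL-6 and IL-8 downwards. Its signs do not set which of RM and LD, or which of IL-6 and IL-8, was the high one. RM was the outlying and highest library in each of the 12 highest. In the lowest, RM and LD mostly sat together below a high IL-8 value. The minimum of 10 reads limits both ends. It keeps out genes that fell below it in RM and genes that fell below it under a single cytokine.

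Genes with at least 100 reads in each library showed the same shapes with smaller counting errors. Of these 1511 genes, 216 had an interaction of at least 1 (14.3%) and 135 of at most -1 (8.93%), and with library factors refitted on the 1511 alone these became 177 and 169. DPH2, which acts in the synthesis of diphthamide on elongation factor 2, had 187 normalised reads in LD, 111 with IL-6, 131 with IL-8 and 1688 in RM, an interaction of 4.44 (SE 0.22). NSFL1C (p47), a cofactor of the p97 ATPase, had 497, 376, 352 and 2559, an interaction of 3.27 (SE 0.13). ZC3H18, an adaptor of nuclear RNA decay, had 660, 372, 739 and 3854, an interaction of 3.21 (SE 0.11). In all 3, LD, IL-6 and IL-8 lay within 1 log2 unit of each other and RM alone stood apart. MAZ, a zinc finger transcription factor, was the most abundant of these genes with 875, 693, 786 and 4157, an interaction of 2.74 (SE 0.09), or 6.68-fold above the additive level.

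E2F4, a cell-cycle repressor, had 271 in LD, 117 with IL-6, 126 with IL-8 and 565 in RM, an interaction of 3.38 (SE 0.22). ATF5, a stress-responsive transcription factor, had 250, 130, 163 and 747, an interaction of 3.13 (SE 0.20). CYB561A3 (2.79), a cytochrome b561 family member, and SPRYD3 (2.78) completed the 8. In these 4 genes LD was second to RM, and each cytokine alone went with a lower level than LD. NONO, at 2.64, was the next gene below MAZ.

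The 8 lowest of the deeper genes ran from -3.41 to -2.54. EPS8L2, an actin regulator of the EPS8 family, had 229 normalised reads in LD, 421 with IL-6, 839 with IL-8 and 145 in RM, an interaction of -3.41 (SE 0.17). CD2BP2, a component of the U5 spliceosomal particle, had 182, 329, 1215 and 234, an interaction of -3.23 (SE 0.16). NCAM1, the neural cell adhesion molecule, had 148, 451, 446 and 166, an interaction of -3.04 (SE 0.19). For NCAM1 each cytokine alone went with a level about 3 times that of LD, and both together with a level near LD. CIC, the transcriptional repressor capicua, had 151, 354, 359 and 110, an interaction of -2.93 (SE 0.21). ZFC3H1, a nuclear RNA decay factor like ZC3H18, had 227, 367, 625 and 138, an interaction of -2.87 (SE 0.18). WBP1, FASTK and the homeobox gene SHOX2 had interactions of -2.55, -2.54 and -2.54, and TCOF1 at -2.41 was the next gene. Without LD, WBP1 and FASTK were no longer past 1 log2 unit, with RM at -0.90 and -0.81 from the mean of the single-cytokine libraries. RM was within 1 log2 unit of LD in all 8, and both lay below both single-cytokine libraries in all 8.

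How far LD decided the score was read from the distance of each of the pair, RM and LD, from the mean of IL-6 and IL-8. Over all 6141 genes the distance had an SD of 0.98 for RM and 0.68 for LD. Among the 1199 high genes the median distance was 1.16 for RM and 0.53 for LD, and among the 1214 low genes it was -1.04 for RM and -0.73 for LD. Leaving LD out, RM was at least 1 log2 unit above the mean of the single-cytokine libraries in 712 of the 1199 (59.4%) and at least 1 below in 645 of the 1214 (53.1%), against 857 (14.0%) and 776 (12.6%) of all genes compared. In 33 high and 43 low genes RM lay on the other side of that mean, so only the distance of LD gave their score its sign. That distance is measured from the mean of IL-6 and IL-8, so a displaced single-cytokine library can also produce it. LD was the farther of the pair in 306 high genes (25.5%) and 460 low genes (37.9%). Over all genes compared, LD lay above RM in 49.3% and below it in 50.7%, which does not count how often LD was farther. Since the genes were chosen on the sum of both distances, these shares describe the choice and are no support for it.

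The position of LD also says what the combination was above or below. RM lay above both single-cytokine libraries in 1064 high genes (88.7%), but LD did so as well in 670 of them (55.9% of the 1199), where each cytokine alone lay below LD and both together above either. Over all genes compared these shares were 36.5% and 15.1%. RM was within 1 log2 unit of LD in 676 high genes (56.4%) and 824 low genes (67.9%), against 70.8% of all genes compared. RM was above all of the other 3 in 881 high genes (73.5%), against 1952 (31.8%) of all genes compared. It was so by at least 1 log2 unit in 391 high genes (32.6%), against 450 (7.33%) of all genes compared. On the low side RM was below all of the other 3 in 726 genes (59.8%), against 1865 (30.4%) of all genes compared. It was so by at least 1 log2 unit in 187 low genes (15.4%), against 232 (3.78%) of all genes compared. RM and LD both enter the interaction, so these shares too describe the choice of genes and are no support for it.

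**Figure D3:**
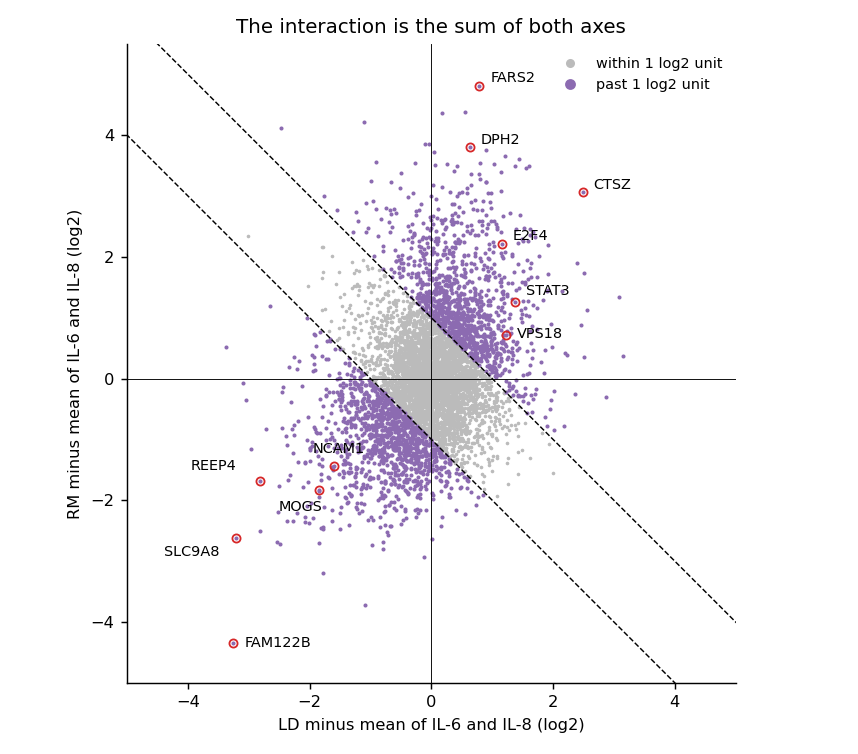
Distance of RM (vertical axis) and of LD (horizontal axis) from the mean of IL-6 and IL-8 in log2 units, 1 point per gene for the 6141 genes compared; the interaction is the sum of both, and the dashed lines mark sums of 1 and -1. FARS2 and DPH2 lie high mainly along the RM axis, and VPS18 lies farther along the LD axis than along the RM axis. STAT3 lies about as far along the LD axis as along the RM axis, and FAM122B is far along both.

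Counted by the library farthest from the median of the other 3, RM was apart in 634 of the 1199 high genes (52.9%), IL-8 in 297 (24.8%), LD in 135 (11.3%) and IL-6 in 133 (11.1%). Among the 1214 low genes IL-8 was apart in 449 (37.0%), RM in 389 (32.0%), LD in 191 (15.7%) and IL-6 in 185 (15.2%). Over all genes compared the shares were 36.6% for RM, 28.1% for IL-8, 18.9% for LD and 16.4% for IL-6. The high and low genes were chosen on a sum that every library enters, so differences from these shares describe that choice. A library that is farther from the others for any reason, its depth and amplification included, adds genes to both ends, and with 1 library per condition the library and its treatment cannot be told apart.

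**Figure D4:**
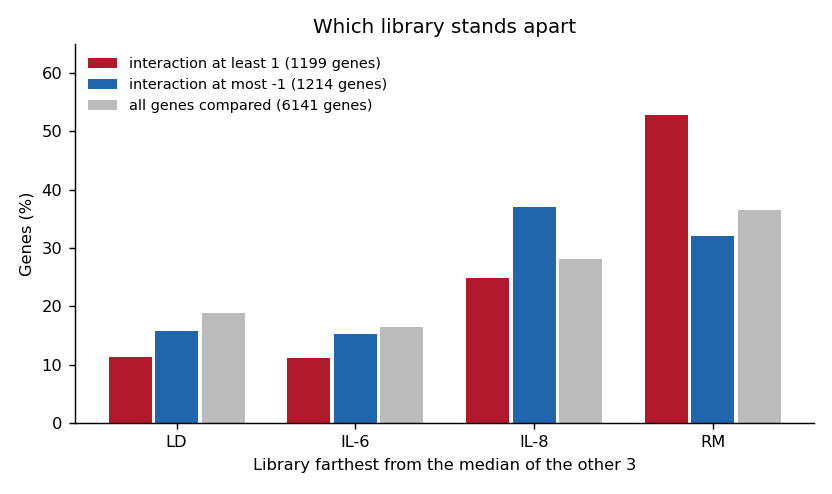
Share of genes (vertical axis, percent) for which each library is the one farthest from the median of the other 3, for genes with an interaction of at least 1 (red), at most -1 (blue) and all genes compared (grey). RM takes 52.9% of the high genes against 36.6% of all genes, and IL-8 takes 37.0% of the low genes against 28.1%. The high and low genes were chosen on the interaction, so their shares describe that choice.

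For each departing library, genes with at least 50 reads in every library show what its part looks like. Of 2587 genes at that depth, 413 had an interaction of at least 1 (16%) and 346 of at most -1 (13.4%). With LD apart, VPS18, an endosome tethering protein, had 417 normalised reads in LD, 207 with IL-6, 152 with IL-8 and 293 in RM, an interaction of 1.95 (SE 0.20). PGD, the pentose phosphate enzyme 6-phosphogluconate dehydrogenase, had 253, 118, 119 and 211, an interaction of 1.94 (SE 0.24). RM lay 0.72 and 0.84 log2 units above the mean of the single-cytokine libraries, so without LD neither was past 1. RM was below LD in both, so their positive score means that the combination lowered them less than the sum of the separate changes would. PRR12 was the opposite case with 54.3, 202, 154 and 81.8, an interaction of -2.80 (SE 0.29).

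With IL-6 apart, XPO7, a nuclear export receptor, had 206, 64.7, 108 and 141 in LD, IL-6, IL-8 and RM, an interaction of 2.06 (SE 0.29), and without LD it was at 0.75. ITPA, the inosine triphosphate pyrophosphatase, had 208, 97.6, 256 and 485, an interaction of 2.01 (SE 0.21). MOGS, the first glucosidase of N-glycan trimming, had 78.1, 773, 103 and 79.6, an interaction of -3.68 (SE 0.28). The IL-6 library alone was high for MOGS, and LD and RM differed by 0.03 log2 units. CABIN1, a calcineurin inhibitor, had an interaction of -2.34 (SE 0.33) in normalised reads and -1.12 in TPM.

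With IL-8 apart, UNC45A, a myosin chaperone, had 475, 295, 175 and 625 in LD, IL-6, IL-8 and RM, an interaction of 2.52 (SE 0.17). WWC1 (KIBRA), a Hippo pathway regulator, had 95.5, 256, 417 and 58.9, an interaction of -4.25 (SE 0.26). With RM apart, NUP214, a nuclear pore protein, had 139, 91.2, 71.8 and 834, an interaction of 4.14 (SE 0.27). In NUP214 the other 3 libraries lay within 1 log2 unit of each other. RRP8, a nucleolar methyltransferase, had 214, 319, 398 and 62.1, an interaction of -3.25 (SE 0.24). BHLHE40, a transcriptional repressor, had 189, 204, 500.4 and 59.95, an interaction of -3.17 (SE 0.25). RM was the lowest library for both.

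Of the pathway genes searched for whatever their value, 5 of 13 had enough reads to be compared, and STAT3 was the only one past 1 log2 unit. STAT3 had 239 normalised reads in LD, 121 with IL-6, 70.6 with IL-8 and 221 in RM, an interaction of 2.63 (interval 2.11 to 3.16). In normalised reads RM and LD differed by 0.11 log2 units, and STAT3 was lower under either cytokine alone. In TPM this did not hold: STAT3 stood at 70.7 in LD, 38.4 with IL-6, 18.4 with IL-8 and 30.1 in RM, so RM lay below LD and below IL-6, and the interaction was 1.59. IL6ST (gp130) had 50.6, 60.5, 35.9 and 52.3, an interaction of 0.29 (interval -0.55 to 1.12), and in TPM its value was -1.56, so its direction depended on the unit. JAK1 had an interaction of 0.63 (interval 0.12 to 1.14). ACTR2 and ACTR3, the actin-related subunits of the Arp2/3 complex, had 0.25 and 0.24, with intervals that include 0.

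The ligands and most receptors were at or near 0 reads. IL6 had 0, 3, 0 and 0 reads in LD, IL-6, IL-8 and RM, IL8 and CXCR1 had 0 in all 4, CXCR2 had 0, 0, 3 and 4, and JAK2 had 1, 5, 5 and 0. No interaction was computed for them. The IL6 and IL8 counts do not show the secretion that the study measured. IL6R had 9, 5, 9 and 8 reads and an interaction of -0.06, with an interval from -2.15 to 2.03. SOCS3, the feedback inhibitor that STAT3 induces, had 23, 19, 7 and 79 reads and was highest in RM, with an interaction of 3.04 (interval 1.62 to 4.45), but it missed the minimum of 10 reads in IL-8. WASF3, an activator of Arp2/3, had 21, 2, 4 and 15 reads and an interaction of 4.56 (interval 1.93 to 7.19). Its normalised level in LD, 15.2, was close to that in RM, 16.4, so the positive WASF3 value was carried by the 2 and 4 reads under the single cytokines.

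Wider gene lists, written with earlier results of these data known, were described by their members beside the 19.5% and 19.8% of all genes. In IL-6, gp130 and STAT3 signalling, 3 of 10 members compared were at least 1, 3 were at most -1 and the median was 0.42. OSMR, a receptor that pairs with gp130, had 46.3 normalised reads in LD, 18.0 with IL-6, 14.9 with IL-8 and 55.6 in RM, an interaction of 3.26. PIAS3, an inhibitor of STAT3, had 2.81, TYK2, a JAK kinase, had -2.49, and LIF, a cytokine of the IL-6 family, had -2.22. Of 10 STAT3 target genes 1 was past the limit, BIRC5 (survivin) at 2.56, with a list median of -0.01. None of 11 genes of IL-8 and CXC chemokine signalling passed 1 log2 unit in either direction, with a range from -0.54 to 0.94 and a median of 0.19.

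In NF-kappaB, 2 of 11 were high, 4 were low and the median was -0.16. NFKBIA, the inhibitor of NF-kappaB, had 125, 53.04, 33.4 and 164 normalised reads in LD, IL-6, IL-8 and RM, an interaction of 3.53. The second inhibitor, NFKBIB, went the other way with 40.5, 48.8, 193 and 31.6, an interaction of -2.88, or -4.73 in TPM. IKBKG (NEMO), the regulatory subunit of the kinase that releases NF-kappaB, had -2.54, and RELA, its p65 subunit, had 136, 197, 436 and 158, an interaction of -2.001. Of 14 AP-1 and immediate early genes, DUSP4, a MAP kinase phosphatase, was the one past the limit at 1.964, or 0.94 without LD, and the median was 0.03.

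Genes of actin nucleation and of the matrix were mixed. Among 29 members of Arp2/3, WAVE and actin nucleation 4 were high and 4 low, with a median of 0.17. BRK1, a WAVE complex subunit, had 83.9 normalised reads in LD, 101 with IL-6, 100.3 with IL-8 and 20.7 in RM, an interaction of -2.54. The formin FMNL2 had -2.20, the Arp2/3 subunit ARPC5 had 2.01 and thymosin beta 4 (TMSB4X) had 1.35, or 0.15 without LD. Of 23 collagens and matrix glycoproteins, 6 were low and 2 high, with a median of -0.08. COL1A2, a chain of type I collagen, had 30.4, 35.0, 187 and 30.5 in LD, IL-6, IL-8 and RM, an interaction of -2.82. It was high in IL-8 alone and had the same level of normalised reads in LD and RM, and in TPM its interaction was -4.60. The laminin chains LAMB2 and LAMA4 stood at -2.78 and 2.90, with LAMB2 at -0.88 without LD and LAMA4 at 5.09 in TPM, and the crosslinking enzyme LOX at -2.27. Of 13 matrix proteases and inhibitors 3 were low and 0 high, with a median of -0.40 and TIMP3, a metalloproteinase inhibitor, lowest at -1.79, or -0.79 without LD. Of 7 integrins 1 was high, ITGA10 at 1.02, and the median was 0.20. ITGA10 was at 0.82 with total reads outside RNA5-8S5 as the scale and at 0.68 in TPM.

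Of 76 cytosolic ribosomal protein genes, 2 were at least 1, RPS9 at 1.10 and RPL15 at 1.01, and 0 were at most -1, with a median of 0.28. Both were under 1 when the libraries were scaled by total reads outside RNA5-8S5 or when TPM was used, and RPL15 was at 0.72 without LD. Mitochondrial ribosomal proteins spread far more widely, with 15 of 55 high, 9 low and a median of -0.08. MRPL43 had 227 normalised reads in LD, 80.6 with IL-6, 176 with IL-8 and 990 in RM, an interaction of 3.99, and MRPS24 had 38.3, 56.2, 142 and 21.8, an interaction of -3.26. RM was the highest library for the first and the lowest for the second. The share past 1 log2 unit fell with depth over all genes, and the part of depth in the difference between these lists was not tested. Of 62 oxidative phosphorylation subunits 12 were high and 7 low, with a median of 0.18. Of 21 glycolysis genes 3 were high and 2 low, with a median of -0.25, and SLC2A1 (GLUT1), the glucose transporter, was highest at 2.59.

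In ATF4 and ER stress 6 of 21 members were high and 1 low, with a median of 0.64. Beside ATF5, these included SLC7A11, the cystine transporter, with 81.7, 37.1, 23.5 and 64.3 normalised reads in LD, IL-6, IL-8 and RM, an interaction of 2.59, and PDIA4, a protein disulfide isomerase, with 2.01. SLC7A11 was highest in LD, and RM lay 1.12 log2 units above the mean of the single-cytokine libraries, so both parts of the sum contributed to its value. In metallothioneins, NRF2 targets and ferritin 4 of 17 were high and 0 low, with a median of 0.66. PGD, given above, is one of them. MT1E, a metallothionein, was at 1.19, and at 0.99 with total reads outside RNA5-8S5 as the scale. Of 14 heat shock genes 2 were high and 1 low, with a median of 0.47, and BAG3, an HSP70 co-chaperone, had 2.20. The medians of these 3 lists were positive under every scaling tried.

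Cell-cycle lists held members at both ends. Of 28 mitosis genes 5 were high and 7 low, with a median of 0.00, and CDC25B, the phosphatase that activates CDK1, was lowest at -2.70. Of 34 genes of DNA replication and nucleotide synthesis 8 were high and 10 low, with a median of -0.32. RPA1, the large subunit of the single-strand binding protein, had 83.9 normalised reads in LD, 45.6 with IL-6, 24.8 with IL-8 and 140 in RM, an interaction of 3.37. GMNN, geminin, an inhibitor of origin licensing, had 34.0, 60.5, 50.8 and 13.1, an interaction of -2.79. Only 7 of the 59 replication-dependent histones that the data list had enough reads to be compared. Of these 7, 3 were low and 0 high, with a median of -0.88. For HIST1H2AH, with 28.2, 71.1, 168 and 144, the low value of -1.56 came from LD, since RM was 0.40 above the mean of the single-cytokine libraries.

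The remaining lists were as follows. Of 20 cholesterol synthesis genes 5 were high and 2 low, with a median of 0.13, and mevalonate kinase (MVK) was highest at 3.85. Of 34 proteasome genes 7 were high and 1 low, with a median of 0.18 and PSMA2, a core particle subunit, at 2.78. Of 7 interferon-stimulated genes 1 was high and 3 low, with a median of -0.68, and IFI27 had 7.23 normalised reads in LD, 11.7 with IL-6, 111 with IL-8 and 11.99 in RM, an interaction of -3.91. IFI27 was high in IL-8 alone. Of 15 abundant noncoding and snoRNA host RNAs 4 were high and 1 low, with a median of 0.31, and of 11 keratins and other intermediate filaments 2 were high and 1 low, with a median of 0.10. The medians of 12 of the lists changed sign under at least 1 of the other scalings or units, so small list medians carry no direction.

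**Figure D5:**
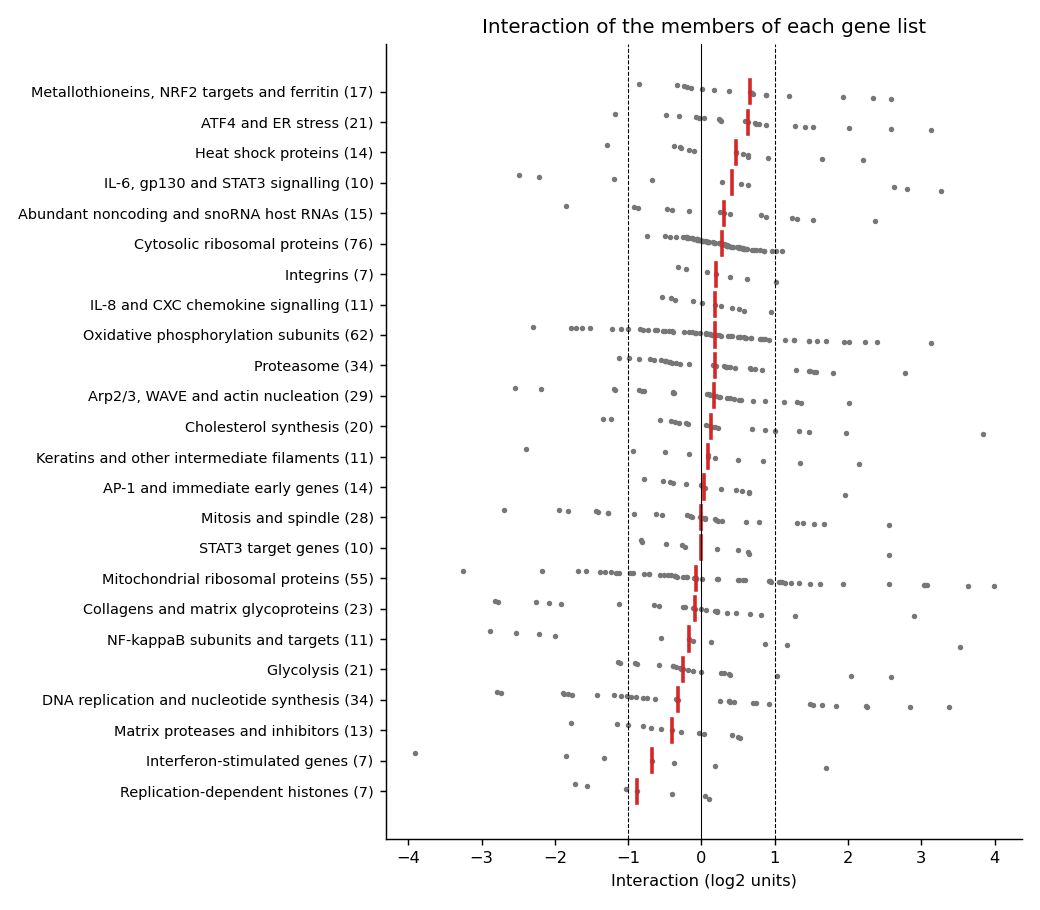
Interaction in log2 units (horizontal axis) of every compared member (grey points) of each gene list (rows, number of members in parentheses), with the list median as a red bar and dashed lines at 1 and -1. Medians run from -0.88 for the histones to 0.66 for metallothioneins, NRF2 targets and ferritin, all within 1 log2 unit of additivity, while single members reach from -3.91 to 3.99.

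Promoters were searched for the palindromic STAT motif TTCNNNGAA and for the AP-1 motif TGANTCA on both strands, in the window from 250 bases before to 50 bases after the RefSeq start (GRCh38.p14), which 4968 of the 6141 genes had (80.9%). A match of one motif is not a match of the other, though the letters of both can overlap. The STAT motif was in 63 of 957 promoters of high genes (6.58%) and 53 of 946 of low genes (5.60%), against 5.98% of all promoters of compared genes and 7.88% of all promoters in the table. The AP-1 motif was in 46 of the high (4.81%) and 35 of the low genes (3.70%), against 4.39% and 7.76%. The shares at both ends thus stayed near those of all compared genes. The stretches below are shown because they hold the motif, in capitals, in named genes from both ends, and the match is a description of letters rather than a binding site. They read 5′ to 3′ on the strand of the gene and lie at chr19:49928692-49928749 (ATF5, + strand), chr7:42932276-42932335 (PSMA2, - strand), chr11:65663930-65663989 (RELA, - strand) and chr14:94110609-94110668 (IFI27, + strand) of GRCh38.p14.
ATF5: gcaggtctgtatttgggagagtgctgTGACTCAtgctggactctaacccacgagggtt
PSMA2: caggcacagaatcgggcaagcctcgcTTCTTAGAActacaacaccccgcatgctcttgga
RELA: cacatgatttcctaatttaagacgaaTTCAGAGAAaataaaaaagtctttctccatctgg
IFI27: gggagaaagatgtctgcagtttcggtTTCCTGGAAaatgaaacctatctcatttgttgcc
The AP-1 letters of ATF5 belong to a gene with an interaction of 3.13, and the STAT letters to genes at 2.78 (PSMA2), -2.001 (RELA) and -3.91 (IFI27). The STAT letters of PSMA2 lie between it and its divergent neighbour MRPL32, a mitochondrial ribosomal protein gene with an interaction of 1.32.

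Genes that failed the minimum of 10 reads in a library include cases where a single library alone had reads. RM had at least 50 reads for 40 genes with under 10 reads in each of the other 3 libraries, against 24 such genes for IL-8, 21 for LD and 6 for IL-6. The reverse, under 10 reads in RM and at least 50 in each of the others, held for 6 genes, equal to the 6 for IL-8 and above the 2 for IL-6 and the 0 for LD. BAG6, a chaperone for membrane proteins, had 430 reads in LD, 196 with IL-6, 508 with IL-8 and 0 in RM. AURKB, the mitotic kinase aurora B, had 131, 73, 182 and 6. Both were well covered without the combination and scarce or not detected with it.

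HD, seeded 5 times as densely and without added cytokine, gives a value that the interaction did not use, though it holds only 449661 reads outside RNA5-8S5. At least 10 reads were found in HD for 650 of the 1199 high genes (54.2%), 676 of the 1214 low genes (55.7%) and 58.6% of all genes compared. Of the 8 highest deeper genes, all of which were highest in RM, HD had a lower TPM than each of the 4 libraries in 7. DPH2 stood at 90.3 TPM in LD, 44.4 with IL-6, 48.9 with IL-8, 625 in RM and 24.99 in HD. MAZ stood at 453, 358, 352, 1687 and 172 TPM in the same order. Of the 8 lowest deeper genes HD was below all of the other 4 in 6. Over all 1511 genes at that depth HD was below the other 4 in 81.5%, and over all genes compared in 48.8%, so a low HD value was not particular to these genes.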

How the data were processed

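RNA was taken from whole collagen matrices after 24 h, selected with oligo-dT, amplified as a whole cDNA pool with phi29 polymerase, tagmented and sequenced as 50-base single-end reads. According to the study, Bowtie2 alignment was followed by RSEM quantification. The submitters' processing notes name Bowtie2 2.3.1, RSEM 1.2.25, CASAVA 1.4 and the builds hg19 and GRCh37. The annotation, the settings and any filter are not given in the sources used here. No hg19 annotation was used here, so genes carry no coordinates. The authors deposited an expected count per gene, as RSEM estimates it, listed in whole numbers and not normalised. They also deposited TPM, corrected by RSEM for transcript length and library total. No molecular identifiers were used, so reads are not independent molecules and the intervals cover counting error only. Amplification of a whole cDNA pool can move a gene in 1 library, which counts do not show.

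From the expected counts, genes with at least 10 reads in LD, IL-6, IL-8 and RM were kept, RNA5-8S5 was removed and libraries were scaled by median-ratio factors (1.38, 0.943, 0.807 and 0.917). The interaction was taken on log2 without a pseudocount. Its counting SE is the root of the summed reciprocal reads, on the log2 scale, and intervals are 95%. The contrasts of the main effects are the same sums with other signs and are not averaged. No test was made. A count of 3 reads, the most that 0 reads allow, equals 2.17 to 3.72 normalised reads, so every kept value lies above it.

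Genes named are the 12 highest and 12 lowest interactions, the 8 at each end with at least 100 reads, for each departing library up to 2 at each end with at least 50 reads, 13 pathway genes, and up to 4 members past 1 log2 unit in each gene list. Results that need items withheld from this text are not reported here. BAG6, AURKB and the genes at the limits were added as examples after their values were seen. The genes, the lists and the markers were chosen with earlier results of these data known. Files list counts under symbols, of which 4 genes share all 4 counts with another gene. Alternatives were TMM (edgeR 4.0.16, R 4.3.3), upper-quartile and total-read scaling, quantile normalisation, pseudocounts, other minimum reads and thresholds, TPM, linear additivity and leaving out LD. The scripts were checked on simulated counts. Promoters are from RefSeq, 4660 matched by symbol and the rest of 4968 by synonym. The scripts ran in Python 3.11.15 with pandas 2.3.3, numpy 2.4.6, matplotlib 3.10.9 and scipy 1.17.1.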

Additional observations from a re-analysis of the deposited data

Results flagged for a closer look

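Only the 8 highest and 8 lowest of the deeper genes and STAT3 were searched for a change of direction. In 3 of the deeper genes each cytokine alone went with a level at least 1 log2 unit above or below LD. Added to the other cytokine, it went with a difference of at least 1 log2 unit in the opposite direction. E2F4, with an interaction of 3.38, differed by -1.10 log2 units in IL-8 against LD and by 2.27 in RM against IL-6, and for IL-6 the differences were -1.22 without and 2.16 with IL-8. NCAM1, with an interaction of -3.04, differed by 1.60 in IL-8 against LD and by -1.44 in RM against IL-6, and by 1.61 and -1.43 for IL-6. CIC, with an interaction of -2.93, differed by 1.25 and -1.69 for IL-8, and by 1.23 and -1.71 for IL-6. E2F4 is a cell-cycle repressor, NCAM1 an adhesion molecule and CIC a repressor downstream of receptor tyrosine kinases. Each difference is 1 library against 1, the differences of a gene share libraries, and the change of direction was not tested. The interaction is the difference with the other cytokine minus the difference without it. A search among the largest interactions therefore favours opposite directions.

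Some genes had reads in RM and fewer than 10 in every one of the other 3 libraries, which kept them out of the comparison. The 10 with the most reads in RM were HTRA3, a secreted serine protease, with 314 reads, NS3BP with 220, C22orf15 with 214, LOC401010 with 198, TSSK3, a testis-specific kinase, with 176, KRT17, a keratin, with 165, GJB2, the gap junction protein connexin 26, with 151, AK056098 with 127, RNF135, a ubiquitin ligase, with 124, and DDX28, a mitochondrial RNA helicase, with 117. C22orf15 had 0 reads in the other 3 libraries, so its normalised level in RM was at least 62.8-fold higher than the level that 3 reads would give in the library with the highest such level. Genes with at least 50 reads in 1 library and under 10 in the other 3 numbered 40 for RM, 24 for IL-8, 21 for LD and 6 for IL-6.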

How the results depend on the processing

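The numbers of high and low genes changed mainly with the minimum reads and the threshold. They were 781 and 800 with at least 20 reads in each library, 370 and 393 with 50, 177 and 169 with 100, each with refitted factors, and 4082 and 5819 with no filter and 1 read added. A threshold of 2 log2 units gave 373 and 372, and 0.5 gave 2014 and 2021. Without LD, RM was at least 1 log2 unit above the mean of the single-cytokine libraries in 857 genes and below that mean in 776, and outside both in 573 and 368. Under the other alternatives the counts stayed between 973 and 1643 (high) and between 1070 and 1725 (low). The median interaction, 0.00, became -0.10 with upper-quartile factors, -0.20 with total reads outside RNA5-8S5, -0.058 with all reads, -0.037 after quantile normalisation, -0.17 in TPM and -0.20 with no filter. The 157 genes followed here are the compared genes named by rank, departing library or pathway, and up to 4 members of each list. These members have the largest absolute interactions of their list, whatever the size, so some are not named above. Of the 1701 values of these genes, 1517 stayed within the counting interval of the reported value, 183 moved and 1 reversed: HIST1H2AH was at 0.40 without LD, against -1.56. Leaving LD out, which takes away 1 of the distances that make up the sum, gave 98 of the 183. It moved 36 of the 40 genes named at both ends, 8 of the 12 highest, all 12 lowest and all 16 of the deeper genes. Of the 157 genes, 129 were past 1 log2 unit, and leaving LD out brought 27 of these back within it. On the linear scale REEP4 was at -2.70, FASTK at -1.58, ARPC5 at 3.08, DUSP4 at 4.68, HIST1H2AH at -0.55, LAMB2 at -1.78, PIAS3 at 5.93 and ITGA10 at 0.90. After quantile normalisation MT1E was at 0.90, RPL15 at 0.72 and RPS9 at 0.73. No linear expectation existed for 26 values. Of 234 list medians 229 stayed and 5 moved. RM was the departing library for 42.4% of the genes past 1 log2 unit, and the distance from the mean of all 4 gave the same share, because both measures pick the same library. LD was the library left out, and the interaction itself cannot be computed without any of the 4. No paired analysis was possible because each condition has 1 library. Depth limits genes with few reads: at 10 to 19 reads the median counting error was 0.61 log2 units.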
